A study of Mus musculus with 8 samples.

Results

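G1 cyclins, their kinases, CDK inhibitors and antiproliferative BTG genes were followed in pancreatic T cells of NOD mice, an inbred strain prone to autoimmune diabetes. The 10 genes, of 32285 features in the deposited matrices, were chosen by name: the CDK inhibitors Cdkn1b, Cdkn2c and Cdkn2d, the D-type cyclins Ccnd2 and Ccnd3, the cyclin-dependent kinases Cdk4 and Cdk6, the retinoblastoma gene Rb1, and the antiproliferative genes Btg1 and Btg2. The rule that lists them uses no measured value. Their unique molecular identifiers (UMIs, 1 per captured transcript) were summed in 3 populations of each of 8 single-cell libraries: CD4-gated cells (Cd4 detected, Cd8a and Cd8b1 not), CD8-gated cells (the reverse) and T cells with a Foxp3 UMI in either gate or neither.

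The libraries came from T cells sorted as CD45+ CD3+ TCRβ+, frozen and processed together. One library came from active diabetes, with blood glucose above 600 mg/dl, and 1 from onset, at 250 mg/dl, both harvested on day 1. The other 6 came from mice treated at new onset, at 200 to 300 mg/dl. Of these, 3 received vehicle (30% ethanol, 5% Tween 20 and 65% PEG300) and 3 received PPCA, which is nutlin-3 at 50 mg/kg, an inhibitor of the p53 antagonist MDM2, with MK-1775 at 25 mg/kg, an inhibitor of the kinase WEE1. Each treated arm had 1 library on each of days 2, 3 and 4, the days in the sample names, after daily dosing. These are read here as harvest days. The series text speaks of 1 to 3 days of therapy, and how that scale matches the sample names is not stated. All groups were NOD mice labelled female and aged 3 to 4 months, and the labels give no engineered allele. How many mice went into a library is not stated, so the spread between libraries may be partly technical. The p-values between populations measure how the difference within a library varies from library to library. Those between arms measure how the difference within a harvest day varies from day to day.

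The libraries held 36934580 to 67603740 UMIs each. The gates gave 2618 to 4719 CD4-gated cells, 1644 to 4443 CD8-gated cells and 220 to 475 Foxp3 T cells per library. In neither gate were 21.4% to 35.1% of T cells, depending on the library. T cell genes summed to 5549 to 7333 UMIs per 1000000 UMIs of the population (CPM) in CD4-gated cells and 5206 to 7030 CPM in CD8-gated cells, whereas 4 B cell genes summed to at most 26.9 CPM and 5 myeloid genes to at most 10.1 CPM in these gates. RNA of other pancreatic cells was present: 12 exocrine and endocrine genes summed to 6.91 to 280 CPM in CD4-gated and 12.6 to 139 CPM in CD8-gated cells, with Gcg at 0 in all of these sums. A pair of haemoglobin genes reached 150 CPM in CD4-gated cells of the active library and at most 6.64 CPM in those of the others. The 3 listed NK cell genes, Ncr1, Klrb1c and Klrk1, summed to 0.669 to 4.65 CPM in CD4-gated and 25.4 to 119 CPM in CD8-gated cells. In CD8-gated cells Klrb1c was at 0 in vehicle days 2 and 4 and PPCA day 2, and Ncr1 in vehicle day 3. This sum is therefore no measure of NK cells. Of the 80470 barcodes, 737 occurred in 2 libraries and 3 in 3. The libraries went against the label of sex: the active and onset libraries, PPCA day 2 and vehicle day 4 carried Xist at 418 to 622 CPM and almost no Y-linked transcripts, whereas vehicle days 2 and 3 and PPCA days 3 and 4 carried 4 Y-linked genes at 186 to 273 CPM in sum and almost no Xist. Only on day 3 were both treated libraries of the same kind. Results between populations are therefore also given for the 4 Xist-carrying libraries, and PPCA was also compared with vehicle with the Y-linked class as a factor. The comparison of harvest days and the interaction term were not fitted in either way. Median UMIs per CD4-gated cell were lower with PPCA than with vehicle on each day, at 4147.5 against 5071, 4518 against 5262 and 3851 against 4993.

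In the cell cycle, D-type cyclins bind CDK4 or CDK6 and phosphorylate the RB protein, which then releases E2F factors and lets the cell enter S phase. CDKN2C (p18) and CDKN2D (p19) bind CDK4 and CDK6 directly, and CDKN1B (p27) binds cyclin-CDK complexes more broadly. BTG1 and BTG2 recruit the CCR4-NOT deadenylase to mRNA and are known in T cells for holding cells in quiescence.

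The promoters of Btg2, Cdkn1b and Btg1 are shown because these are the 3 members called higher on day 4 in at least 1 gate in the comparison of harvest days. They are the 250 bases before the annotated start in RefSeq (GRCm38.p6), read 5′ to 3′ on the strand of the gene, at chr1:134079156-134079405 (minus strand) for Btg2, chr6:134920151-134920400 (plus strand) for Cdkn1b and chr10:96616751-96617000 (plus strand) for Btg1. Capitals mark matches to the searched motifs, on either strand.
Btg2: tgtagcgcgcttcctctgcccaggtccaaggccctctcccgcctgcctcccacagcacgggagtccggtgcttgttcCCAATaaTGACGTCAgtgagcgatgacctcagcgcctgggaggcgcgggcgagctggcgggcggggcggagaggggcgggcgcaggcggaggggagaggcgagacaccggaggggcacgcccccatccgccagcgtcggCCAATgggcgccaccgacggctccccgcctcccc
Cdkn1b: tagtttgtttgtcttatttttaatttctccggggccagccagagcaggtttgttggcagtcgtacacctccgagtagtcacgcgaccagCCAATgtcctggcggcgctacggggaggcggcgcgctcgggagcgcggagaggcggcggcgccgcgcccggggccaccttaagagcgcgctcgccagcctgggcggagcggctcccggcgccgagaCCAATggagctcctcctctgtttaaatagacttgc
Btg1: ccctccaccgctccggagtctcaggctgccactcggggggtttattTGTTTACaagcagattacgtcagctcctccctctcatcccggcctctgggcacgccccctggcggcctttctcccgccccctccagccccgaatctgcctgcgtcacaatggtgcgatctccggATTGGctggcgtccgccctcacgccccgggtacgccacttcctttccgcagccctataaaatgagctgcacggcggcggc

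The Btg2 window held the cAMP response element TGACGTCA, starting 166 bases before the gene start, and 2 CCAAT boxes, at 173 and 34 bases. The Cdkn1b window held 2 CCAAT boxes, at 161 and 35 bases. The Btg1 window held the forkhead motif TGTTTAC at 204 bases and a CCAAT box on the opposite strand, printed as ATTGG, at 80 bases. Among 32851 RefSeq promoters of the same length, TGACGTCA occurred in 1.55%, TGTTTAC in 3.17% and CCAAT in 33.8%. The AP-1 motif TGANTCA occurred in 6.75% of them and in no window of the members. Members not shown also had matches. A Ccnd3 promoter held TGTTTAC at 243 bases and another Ccnd3 promoter CCAAT at 108 bases. The Cdkn2d promoter held CCAAT on the opposite strand at 220 bases. In all, 8 of the 10 members had an entry in the promoter table, and Ccnd2 and Rb1 did not.

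**Figure D1:**
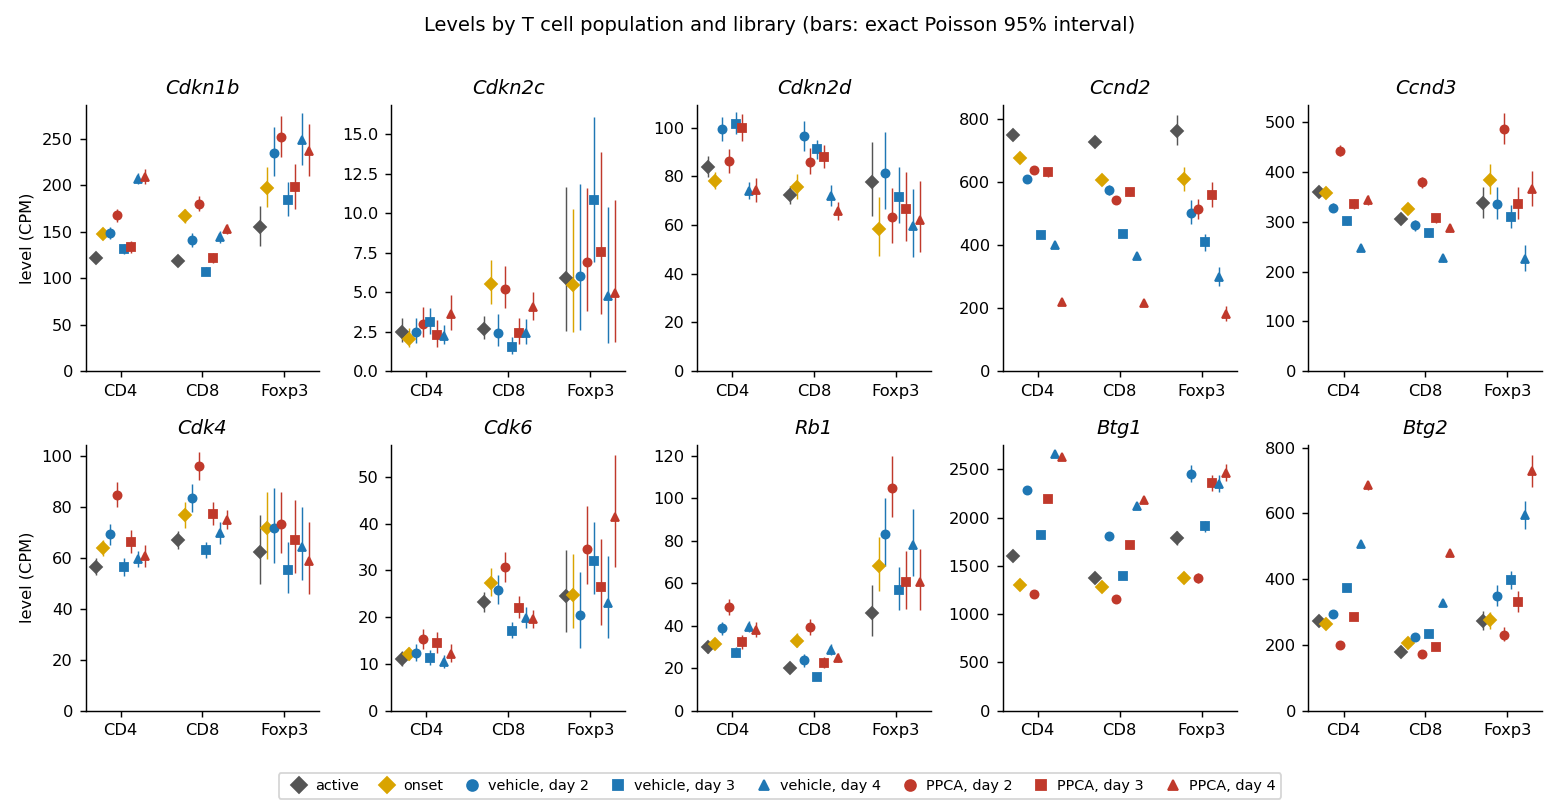
Level of each of the 10 genes in CD4-gated, CD8-gated and Foxp3 T cells of the 8 libraries, in CPM, with exact Poisson 95% intervals that cover counting error only. Ccnd2 in CD4-gated cells ran from 220.2 CPM in PPCA day 4 to 748.7 CPM in the active library, and Btg2 was highest in PPCA day 4, at 685.3 CPM.

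The first comparison asked how the genes differ between CD8-gated and CD4-gated cells of the same library. Cdk6 and Cdk4 were higher in CD8-gated cells in all 8 libraries, Btg2, Btg1 and Ccnd3 were lower in all 8, and Rb1 was lower in 7. These 6 of 10 members passed the threshold of 0.05 in edgeR's quasi-likelihood test with Benjamini-Hochberg adjustment, against 45.4% of the 12667 genes tested, so their share was near that of all genes. Of all genes, 23% were called higher and 22.3% lower. Between these populations, fewer cells with a transcript and fewer transcripts per cell cannot be told apart from the sums.

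Among the CDK inhibitors none passed the test. Cdkn1b was at 122.1, 148.1 and 209.4 CPM (lowest, median and highest library) in CD4-gated cells and at 107.2, 142.7 and 180.2 CPM in CD8-gated cells. It was lower in CD8-gated cells of 6 of the 8 libraries and higher in 2, and the log2 fold change was -0.11 ± 0.060 (SE; adjusted p = 0.139 in edgeR). Leaving out the onset library or PPCA day 2 took it past the threshold, both at -0.16, as did dropping the low-count filter, at -0.12. Without both day 4 libraries, whose within-library ratios were the lowest (-0.52 and -0.45), it was -0.0043, and in the 4 Xist-carrying libraries -0.049. Cdkn2d was lower in CD8-gated cells of all 8 libraries by a small amount (log2 fold change -0.064 ± 0.027, adjusted p = 0.0622 in edgeR), and it was called under 5 other settings: scaling by total counts (-0.11), median-of-ratios size factors (-0.071), a stricter cell filter (-0.084), and without vehicle day 2 (-0.081) or PPCA day 2 (-0.088). In the 4 Xist-carrying libraries Cdkn2d was at -0.054 and was not called. Cdkn2c was sparse, at 2.07 to 3.60 CPM in CD4-gated and 1.55 to 5.50 CPM in CD8-gated cells, with a log2 fold change of 0.28 ± 0.19 (adjusted p = 0.25 in edgeR). The ratio was 1.41 in the onset library, 0.79 in PPCA day 2, -0.995 in vehicle day 3 and between -0.03 and 0.17 in the other 5. The fitted value passed without vehicle day 3, at 0.45, and in the 4 Xist-carrying libraries, at 0.65, and was 0.095 without the onset library.

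The cyclins differed little between the gates. Ccnd3, the D-type cyclin needed for the growth of developing lymphocytes, was at 246.9, 339.7 and 443.0 CPM in CD4-gated cells and at 226.6, 299.0 and 379.3 CPM in CD8-gated cells. It was lower in CD8-gated cells of all 8 libraries, by 0.13 ± 0.024 on the log2 scale in size (log2 fold change -0.13, adjusted p = 0.000386 in edgeR). Ccnd2 was at 220.2, 620.7 and 748.7 CPM against 216.9, 555.3 and 725.9 CPM and did not pass, at -0.059 ± 0.031 (adjusted p = 0.146 in edgeR). Scaling by total counts took Ccnd2 past the threshold, at -0.10, and restricting the fit to cells of 3000 to 8000 UMIs did the same. In the 4 Xist-carrying libraries Ccnd3 was called, at -0.15, and Ccnd2, at -0.12, was not.

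Of the members, Cdk6 had the largest log2 fold change and the lowest adjusted p between the gates. Cdk6 was at 10.4, 12.1 and 15.2 CPM in CD4-gated cells and at 17.1, 22.6 and 30.6 CPM in CD8-gated cells. The ranges of the gates did not overlap, and within each library the log2 ratio lay between 0.60 and 1.17. The fitted level was 1.92-fold higher in CD8-gated cells (log2 fold change 0.94 ± 0.062, adjusted p = 4.59e-09 in edgeR). Cdk4, the partner kinase, was at 56.3, 62.3 and 84.8 CPM against 63.1, 76.0 and 96.0 CPM, 1.21-fold higher (0.28 ± 0.026, adjusted p = 2.54e-07 in edgeR), with overlapping ranges but the same direction in every library. Both kinases were also called in the 4 Xist-carrying libraries, Cdk6 at 1.07 and Cdk4 at 0.26.

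Rb1, the substrate of these kinases, was at 27.3, 35.0 and 48.6 CPM in CD4-gated cells and at 15.8, 24.3 and 39.1 CPM in CD8-gated cells. It was lower in CD8-gated cells of 7 libraries and higher in the onset library, with a log2 fold change of -0.43 ± 0.064 (adjusted p = 4.51e-05 in edgeR). In the Xist-carrying libraries alone the difference was -0.29 and was called. In CD8-gated cells Rb1 and Cdkn1b were highest in PPCA day 2 and the onset library. These also had the highest sums of Ncr1, Klrb1c and Klrk1, 86.8 and 119 CPM against 25.4 to 73.0 CPM in the others. Klrb1c was at 0 in PPCA day 2, and the part of these genes was not tested.

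Btg2 was at 198.7, 289.1 and 685.3 CPM in CD4-gated cells and at 172.6, 214.9 and 479.9 CPM in CD8-gated cells, 1.37-fold lower there (log2 fold change -0.45 ± 0.040, adjusted p = 1.66e-07 in edgeR). Btg1 was at 1208, 2009 and 2659 CPM against 1159, 1555 and 2179 CPM, with a log2 fold change of -0.20 ± 0.033 (adjusted p = 9.16e-05 in edgeR). Both BTG genes were lower in CD8-gated cells of all 8 libraries, and both were called in the Xist-carrying libraries, at -0.43 and -0.13. The early response genes, 13 transcripts such as Fos and Jun that rise fast after stimulation or tissue handling, moved with them: 10 of the 13 were called lower in CD8-gated cells and none higher. Their part in the BTG difference was not tested.

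**Figure D2:**
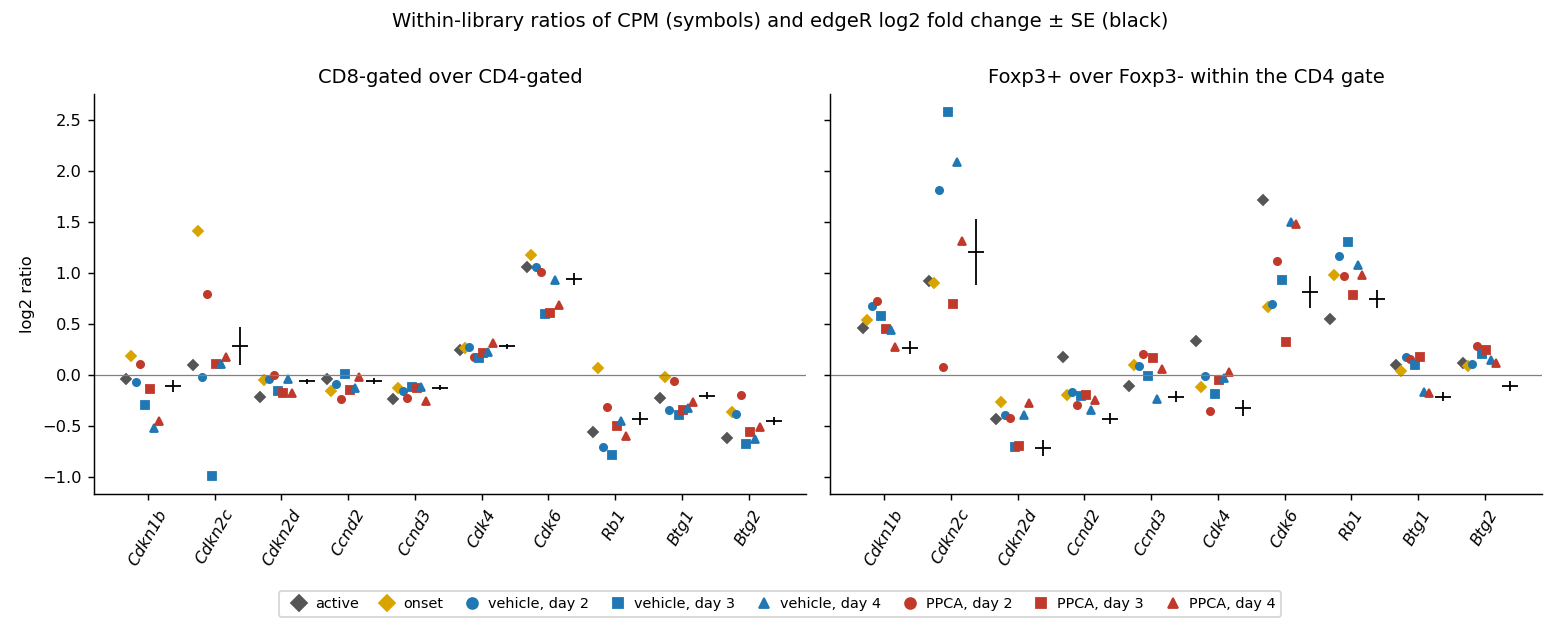
Within-library log2 ratios of CPM for the 10 genes, CD8-gated over CD4-gated cells and Foxp3-positive over Foxp3-negative CD4-gated cells, with 1 symbol per library and the edgeR log2 fold change ± SE in black. All 8 points of Cdk6 lie above 0 in both comparisons, and all 8 points of Btg2 lie below 0 for CD8 over CD4.

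Of 31 other genes of the G1 and BTG pathways, 30 were tested between the gates, and 6 were called higher and 9 lower in CD8-gated cells. The 6 with the lowest adjusted p were Foxo1 (log2 fold change -0.50), a transcription factor of quiescent T cells, Cdk2 (-0.83), the S phase kinase, its cyclin Ccne1 (0.86), E2f2 (-0.76), and the BTG relatives Btg3 (0.32) and Tob2 (-0.25). The median log2 fold change was -0.089 over the members and -0.012 over this list. Of 11 cycling genes tested, 4 were called higher and 1 lower in CD8-gated cells.

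The second comparison set CD4-gated cells with a Foxp3 UMI, the mark of regulatory T cells, against CD4-gated cells without one. Cdkn1b, Cdkn2c, Cdk6 and Rb1 were higher in the Foxp3-positive cells in all 8 libraries, and Cdkn2d was lower in all 8. In edgeR's quasi-likelihood test, 9 of 10 members were called, 4 higher and 5 lower, against 31.1% of 12182 genes tested, 14.2% higher and 16.9% lower. There were 101 to 201 Foxp3-positive CD4-gated cells per library. All 6 other regulatory T genes of the fixed list were higher in them, by 1.37 to 4.66 on the log2 scale. Genes differed in direction with scaling here: scaling by total counts alone moved the median of all genes from -0.047 to 0.21, and the share of calls that were higher from 45.6% to 84.4%.

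Cdkn1b was at 165.1, 220.5 and 279.4 CPM in Foxp3-positive cells and at 120.5, 145.0 and 207.7 CPM in Foxp3-negative cells. The ranges overlapped, but within each library the positive cells were higher, in the fit too (log2 fold change 0.27 ± 0.060, adjusted p = 0.000331 in edgeR, and 0.53 under scaling by total counts). Cdkn2c rested on 2 to 15 UMIs per library in the positive cells. Its levels there were 4.6 CPM (active), 3.8 (onset), 7.8 and 3.2 (vehicle and PPCA, day 2), 14.6 and 3.6 (day 3), and 8.8 and 8.5 (day 4), against 2.0 to 3.4 CPM in the negative cells. Vehicle day 3 stood highest, and it also had the highest sum of pancreatic genes in the positive cells, 477 CPM against 3.54 to 146 CPM in the other 7 libraries, whose part was not tested. The log2 fold change was 1.21 ± 0.32 (adjusted p = 0.00281 in edgeR), and neither without vehicle day 3, at 0.91, nor in the Xist-carrying libraries, at 0.77, did it pass.

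Cdkn2d went the other way from the other 2 inhibitors. It was at 56.6, 63.0 and 76.3 CPM in Foxp3-positive cells and at 74.5, 86.2 and 103.7 CPM in Foxp3-negative cells, with a log2 fold change of -0.72 ± 0.079 (adjusted p = 8.26e-11 in edgeR). The highest positive library lay just above the lowest negative one, and within each library the positive cells were lower. Scaling by total counts left it at -0.46, still called.

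Of the cyclins, Ccnd2 was at 186.9, 535.1 and 843.6 CPM in Foxp3-positive cells and at 221.5, 624.2 and 745.2 CPM in Foxp3-negative cells. It was lower in the positive cells of 7 libraries and higher in the active library, with a log2 fold change of -0.43 ± 0.051 (adjusted p = 9.31e-10 in edgeR) that was -0.17 and still called under scaling by total counts. Ccnd3 was called lower, at -0.22 ± 0.053 (adjusted p = 0.00117 in edgeR), but turned to 0.042 and was not called under scaling by total counts, and in CPM it was higher in the positive cells of 5 libraries and lower in 3.

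Cdk6 was at 17.8, 24.4 and 33.6 CPM in Foxp3-positive cells, on 10 to 29 UMIs per library, and at 10.0, 11.6 and 14.3 CPM in Foxp3-negative cells. The ranges did not overlap, and the fitted level was 1.75-fold higher (log2 fold change 0.81 ± 0.16, adjusted p = 4.38e-05 in edgeR). Cdk4 was called lower, at -0.33 ± 0.083 (adjusted p = 0.00141 in edgeR), but at -0.071 under scaling by total counts and at -0.31 in the Xist-carrying libraries it was not called. Rb1 was at 42.8, 67.3 and 89.4 CPM in the positive cells and at 25.4, 33.7 and 45.6 CPM in the negative cells, 1.68-fold higher in the fit (0.75 ± 0.090, adjusted p = 1.57e-09 in edgeR). The lowest positive library, the active one, lay below the highest negative library, and in every library the positive cells exceeded the negative ones by 0.55 to 1.30 on the log2 scale of CPM.

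The BTG genes did not keep a direction across scalings. Btg1 was called lower, at -0.21 ± 0.044 (adjusted p = 0.000106 in edgeR), and was at 0.047 and not called under scaling by total counts. Btg2 was at -0.11 ± 0.049 (adjusted p = 0.098 in edgeR) and was called higher, at 0.16, under scaling by total counts. In CPM, before the TMM factors, Btg2 was higher in the positive cells of all 8 libraries and Btg1 in those of 6. Without both day 4 libraries 9 members were called, with 3306 of 11665 genes, and in cells of 3000 to 8000 UMIs also 9, with 3306 of 11909 genes. In the 4 Xist-carrying libraries 7 members were called, with 2238 of 11572 genes. These were Cdkn1b (0.30), Cdk6 (0.999), Rb1 (0.68), Cdkn2d (-0.62), Ccnd2 (-0.40), Ccnd3 (-0.23) and Btg1 (-0.22), while Btg2 (-0.097) was not called. Of 29 other pathway genes tested, 5 were called higher and 3 lower, while 12 log2 fold changes lay above 0 and 17 below. The 6 with the lowest adjusted p were Cdkn1a (2.51), the p53-induced CDK inhibitor p21, the RB relative Rbl2 (0.38), E2f3 (1.35), its partner Tfdp2 (0.58), E2f2 (0.51) and the deadenylase subunit Cnot6l (-0.29). Of 12 cycling genes, 6 were called higher in Foxp3-positive cells and none lower, and their part in the members' differences was not tested.

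The third comparison was the one the treatment arms were made for: PPCA against vehicle within harvest days. No member passed the threshold in any of the 3 populations. In edgeR's quasi-likelihood test with Benjamini-Hochberg adjustment, 0% of 11940 genes were called in CD4-gated cells, 0% of 11974 in CD8-gated cells and 0.0796% of 8789 in Foxp3 T cells. At an unadjusted p under 0.05 there were 820, 952 and 581 genes, and DESeq2 called 35, 40 and 14. With 3 libraries per arm and 2 residual degrees of freedom, a miss of the threshold does not show that the arms were alike.

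Ccnd3 was the member with the same direction on every day in every population. In CD4-gated cells it was at 328.3, 301.9 and 246.9 CPM with vehicle on days 2, 3 and 4 and at 443.0, 336.2 and 343.2 CPM with PPCA. All 3 PPCA libraries lay above all 3 vehicle libraries, as for no other member in this gate. The share of all genes with arms apart was not counted, so this separation is a description only. The means were 292 ± 41.5 and 374 ± 59.8 CPM (SD, n = 3 each), with a log2 fold change of 0.27 ± 0.12 (unadjusted p = 0.0505, adjusted p = 0.725 in edgeR). In CD8-gated cells the values were 292.9, 276.9 and 226.6 CPM against 379.3, 307.4 and 287.4 CPM, and in Foxp3 T cells 336.7, 309.6 and 226.1 CPM against 487.2, 336.5 and 366.1 CPM. PPCA was higher within each day there too, with overlap of the arms between days, and the log2 fold changes were 0.20 ± 0.10 (adjusted p = 0.691 in edgeR) and 0.40 ± 0.15 (unadjusted p = 0.0184, adjusted p = 0.708 in edgeR).

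Ccnd2, by contrast, turned with the day. In CD4-gated cells it was at 610.5, 433.4 and 399.3 CPM with vehicle and at 638.5, 630.9 and 220.2 CPM with PPCA on days 2, 3 and 4. The log2 ratio of PPCA to vehicle was 0.06, 0.54 and -0.86 in CD4-gated cells, -0.08, 0.39 and -0.75 in CD8-gated cells, and 0.03, 0.45 and -0.72 in Foxp3 T cells. PPCA was thus higher on day 3 and lower on day 4 in each population, with 1 library per arm and day and no test of that change. Over the days the arms had similar means with wide spread, 481 ± 113 and 497 ± 239 CPM in CD4-gated cells (SD, n = 3), with -0.16 ± 0.22 for the log2 fold change (adjusted p = 0.904 in edgeR).

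**Figure D3:**
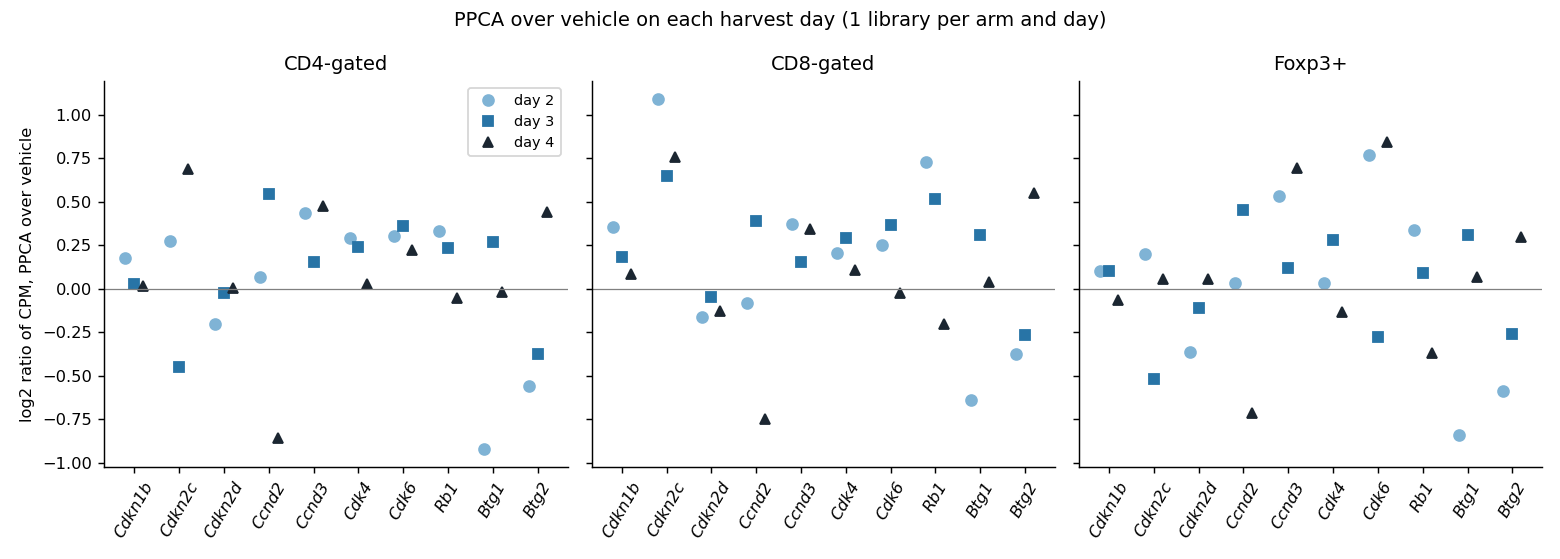
Log2 ratio of PPCA to vehicle in CPM on days 2, 3 and 4 for the 10 genes in CD4-gated, CD8-gated and Foxp3 T cells, 1 library per arm and day. Ccnd3 lies above 0 at all 9 points, while Ccnd2 in CD4-gated cells runs from 0.54 on day 3 to -0.86 on day 4.

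The BTG genes also changed direction between days. Btg1 in CD4-gated cells was at 2290.4, 1824.5 and 2658.6 CPM with vehicle and at 1207.9, 2193.2 and 2627.1 CPM with PPCA. PPCA day 2 was the lowest of the 6, and the ratios were -0.92, 0.27 and -0.02 on the log2 scale. In CD8-gated cells Btg1 gave -0.64, 0.31 and 0.04. Btg2 in CD4-gated cells was at 292.3, 371.8 and 505.7 CPM with vehicle and at 198.7, 285.9 and 685.3 CPM with PPCA, so PPCA was lower on days 2 and 3 and higher on day 4. The ratios were -0.56, -0.38 and 0.44 in CD4-gated cells and -0.37, -0.27 and 0.55 in CD8-gated cells. Fitted over the days, Btg2 gave -0.25 ± 0.19 (adjusted p = 0.816 in edgeR) in CD4-gated cells and -0.12 ± 0.19 (adjusted p = 0.907 in edgeR) in CD8-gated cells. Without the day 4 pair, Btg2 in CD8-gated cells was called, at -0.45, with 236 of 11556 genes called in all. That fit leaves fewer than 2 residual degrees of freedom.

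Btg2, but not Btg1, had the same directions by day as the early response genes. Their summed level in CD4-gated cells was 3000, 3023 and 6087 CPM with vehicle and 1352, 2715 and 9814 CPM with PPCA, lower with PPCA on days 2 and 3 and higher on day 4. With the Y-linked class as a further factor, no member was called in any population, against 126 of 11940, 269 of 11974 and 96 of 8789 genes. That fit leaves fewer than 2 residual degrees of freedom. Ccnd3 was at 0.27, 0.20 and 0.40 in it, in CD4-gated, CD8-gated and Foxp3 T cells. The part of the early response genes and of the lower UMIs per cell in the PPCA libraries was not tested.

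The cycling and regulatory T cell genes gave no call between the arms in these populations. All 10 tested were lower with PPCA in CD4-gated cells (median log2 fold change -0.24), 8 of 11 in CD8-gated cells (-0.14) and all 8 in Foxp3 T cells (-0.77). In Foxp3 T cells their sum was 209, 250 and 291 CPM with vehicle and 130, 172 and 166 CPM with PPCA on days 2, 3 and 4, so the arms did not overlap. In CD4-gated cells it was 168, 169.8 and 170.9 CPM with vehicle and 138, 149 and 184 CPM with PPCA, and in CD8-gated cells 164, 134 and 151 CPM with vehicle and 151, 136 and 159 CPM with PPCA, so PPCA was higher on day 4 in both gates and on day 3 in CD8-gated cells. All 7 regulatory T cell genes were higher with PPCA in CD4-gated cells (median 0.34). Their sum there was 318.5, 333 and 248 CPM with vehicle and 460.5, 314 and 520.2 CPM with PPCA on days 2, 3 and 4, higher on days 2 and 4 and lower on day 3. In CD8-gated and Foxp3 T cells 5 of the 7 were higher (median 0.21 and 0.082). The part of the cycling and regulatory T cell genes in the values of the members was not tested.

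The inhibitors and kinases did not pass either. Cdkn1b in CD4-gated cells was at 148.5, 131.4 and 207.1 CPM with vehicle and at 167.8, 133.9 and 209.4 CPM with PPCA, within 0.18 on the log2 scale on each day. Its fitted log2 fold changes were -0.011 ± 0.099 in CD4-gated and 0.12 ± 0.095 in CD8-gated cells (adjusted p = 0.988 and 0.802 in edgeR). Cdkn2c in CD8-gated cells was higher with PPCA on all 3 days, at log2 ratios of 1.09, 0.65 and 0.76, on few UMIs (0.74 ± 0.25, unadjusted p = 0.0169, adjusted p = 0.582 in edgeR). It went both ways in CD4-gated cells, at 0.27, -0.45 and 0.68, and in Foxp3 T cells, at 0.20, -0.52 and 0.06. In CD8-gated cells the sum of Ncr1, Klrb1c and Klrk1 was also higher with PPCA on each day. It was 86.8, 31.8 and 65.8 CPM against 73.0, 25.4 and 28.3 CPM with vehicle, and its part was not tested. Cdkn2d in CD8-gated cells was lower with PPCA on all 3 days, at -0.17, -0.05 and -0.13 (-0.20 ± 0.083, adjusted p = 0.61 in edgeR). Cdk4 was higher with PPCA on each day in both gates, by 0.03 to 0.29 on the log2 scale, without passing (0.10 ± 0.098 and 0.11 ± 0.082, adjusted p = 0.849 and 0.783 in edgeR). Cdk6 was at 0.21 ± 0.12 and 0.11 ± 0.10 in the gates, and in Foxp3 T cells its ratios were 0.77, -0.28 and 0.84 on days 2, 3 and 4 (0.36 ± 0.26, adjusted p = 0.835 in edgeR). Rb1 was at 0.086 ± 0.11 and 0.25 ± 0.16 in the gates, higher with PPCA on days 2 and 3 and lower on day 4 in both.

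Whether PPCA acted differently on the members in CD8-gated than in CD4-gated cells was tested by the interaction term. No member was called, against 0.00803% of 12458 genes, and 433 genes had an unadjusted p under 0.05. The member nearest to the threshold was Cdkn2c, at 0.70 ± 0.34 (unadjusted p = 0.0597, adjusted p = 1 in edgeR). Of the other pathway genes, none was called in the 30, 30 and 23 tested in CD4-gated, CD8-gated and Foxp3 T cells.

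The treated libraries were also compared by harvest day. Day 4 was set against days 2 and 3 over both arms, 2 libraries against 4. The fit gives each harvest day its own term and leaves 2 residual degrees of freedom, so its p-values set day 4 against the spread within days, not against the spread between harvest days, and day 4 is a single harvest. Btg2 was higher on day 4 in both gates, Cdkn1b was called higher in CD4-gated cells, and Btg1 higher and Ccnd2 lower in CD8-gated cells. This made 2 of 10 members in CD4-gated cells, against 13.9% of the 11940 genes (8.52% higher, 5.39% lower), and 3 of 10 in CD8-gated cells, against 16.3% of the 11974 genes (9.11% higher, 7.15% lower). Scaling by total counts moved the median of all genes to -0.17 and -0.18, and the share of calls that were higher from 61.3% to 32.4% in CD4-gated cells and from 56.0% to 27.7% in CD8-gated cells.

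Btg2 on day 4 stood at 505.7 and 685.3 CPM in CD4-gated cells, against 198.7 to 371.8 CPM on days 2 and 3. In CD8-gated cells it was at 327.5 and 479.9 CPM against 172.6 to 232.8 CPM, and in Foxp3 T cells at 593.9 and 728.8 CPM against 231.3 to 396.6 CPM. Day 4 did not overlap the earlier days in any of the 3 populations, which come from the same libraries. The share of all genes with day 4 apart was not counted, so overlap here and below is a description only. The level was 2.39-fold higher in CD4-gated cells (log2 fold change 1.26 ± 0.20, adjusted p = 0.00828 in edgeR) and 2.21-fold higher in CD8-gated cells (1.15 ± 0.19, adjusted p = 0.00864 in edgeR), and higher under scaling by total counts too, at 1.09 and 0.98. Without the day 2 pair it was 0.91 in CD4-gated cells and not called. Btg1 stood at 2658.6 and 2627.1 CPM against 1207.9 to 2290.4 CPM in CD4-gated cells (0.67 ± 0.20, adjusted p = 0.0627 in edgeR) and at 2119.5 and 2178.5 CPM against 1159.1 to 1806.1 CPM in CD8-gated cells (1.59-fold, 0.67 ± 0.17, adjusted p = 0.0326 in edgeR). In both gates the day 4 libraries were above all 4 others.

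Cdkn1b on day 4 was at 207.1 and 209.4 CPM in CD4-gated cells against 131.4 to 167.8 CPM on days 2 and 3, a 1.60-fold higher fitted level (0.68 ± 0.10, adjusted p = 0.00749 in edgeR, and 0.53 and called under scaling by total counts). In CD8-gated cells, at 144.3 and 153.0 CPM against 107.2 to 180.2 CPM, the days overlapped and the test was not passed (0.30 ± 0.099, adjusted p = 0.0779 in edgeR). Whether the day difference of Cdkn1b itself differs between the gates was not tested.

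Cdkn2d was lower on day 4 without overlap in CPM in all 3 populations, with means of 74.1 against 96.7 CPM in CD4-gated and 68.8 against 90.4 CPM in CD8-gated cells. It did not pass in the fit (-0.22 and -0.23, adjusted p = 0.189 and 0.115 in edgeR), and scaling by total counts called it in CD8-gated cells, at -0.39. Under that scaling, which CPM shares, the median of all genes was also lower on day 4, at -0.17 and -0.18 in the gates. Ccnd2 was likewise lower on day 4 without overlap in all 3 populations. In CD8-gated cells it was at 365.2 and 216.9 CPM against 434.5 to 574.7 CPM, 1.65-fold lower (-0.73 ± 0.18, adjusted p = 0.0353 in edgeR). In CD4-gated cells it was at 399.3 and 220.2 CPM against 433.4 to 638.5 CPM (-0.75 ± 0.24, adjusted p = 0.079 in edgeR), and scaling by total counts took it past the threshold, at -0.91. Ccnd3, Cdk4, Cdk6 and Rb1 were not called in either gate.

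Leaving out pairs of libraries changed these calls, in fits with fewer than 2 residual degrees of freedom. Without the day 3 pair, 189 genes were called in CD8-gated cells in place of 1947, and Ccnd2 at -0.69, Btg1 at 0.86 and Btg2 at 1.31 were no longer among them. Without the day 2 pair, Ccnd2 in CD8-gated cells was at -0.77 and not called, while Cdkn1b was called, at 0.43. In CD4-gated cells 786 genes were called without the day 2 pair and 768 without the day 3 pair, in place of 1660, and in the second case Btg1 was called.

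**Figure D4:**
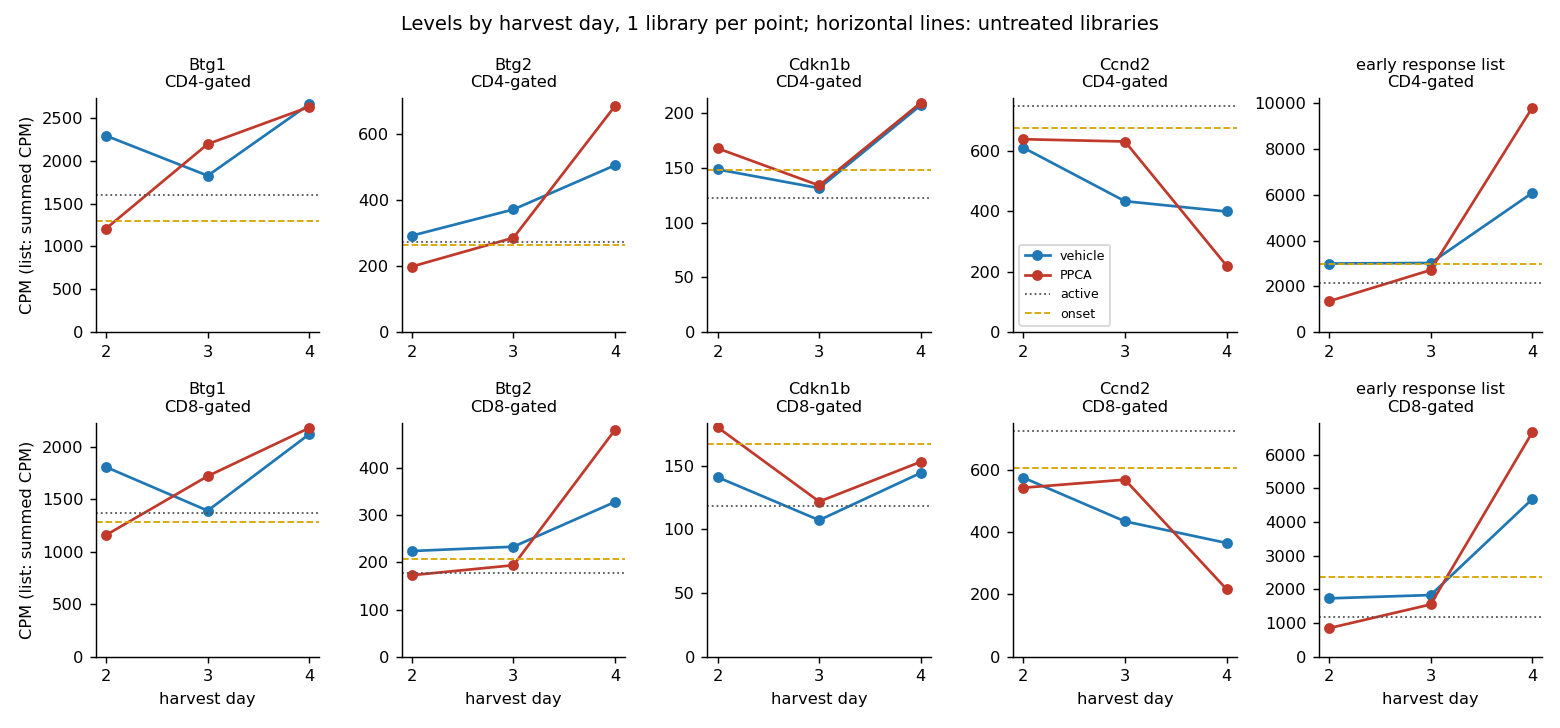
Levels of Btg1, Btg2, Cdkn1b and Ccnd2 and the summed level of 13 early response genes in CPM by harvest day in CD4-gated and CD8-gated cells, with 1 vehicle and 1 PPCA library per day and lines for the active and onset libraries. Btg2 and the early response sum are highest on day 4 in both arms, and Ccnd2 is lowest there.

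The early response genes moved in the same direction as the BTG genes by day. In CD4-gated cells 10 of 13 were called higher on day 4, with a median log2 fold change of 1.97, and in CD8-gated cells 12 of 13, with a median of 2.39. Their sum on day 4 was 6087 and 9814 CPM in CD4-gated cells, against 1352 to 3023 CPM on days 2 and 3. Their part in the day difference of the members was not tested. The 12 pancreatic genes on day 4 summed to 139 and 89.8 CPM in CD8-gated cells, against 17.4 to 82.9 CPM on days 2 and 3. In CD4-gated cells they went the other way, at 46.8 and 74.0 CPM against 90.8 to 280 CPM. The 4 B cell genes in CD8-gated cells were at 15.3 and 11.2 CPM against 21.4 to 24.5 CPM, and overlapped by day in CD4-gated cells. The part of these genes was not tested either. Each day had 1 library per arm, and on day 4 the vehicle library carried Xist and the PPCA library Y-linked transcripts, as on day 2 with the arms exchanged. The summed cycling genes stayed between 138 and 184 CPM in CD4-gated, between 134 and 184 CPM in CD8-gated and between 130 and 291 CPM in Foxp3 T cells over the 8 libraries.

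Of 30 other pathway genes tested by day, 7 were called higher and 1 lower in CD4-gated cells and 6 were called higher and 1 lower in CD8-gated cells. The BTG relatives Tob1 (1.72 and 1.67), Tob2 (1.35 and 1.08) and Btg3 (0.98 and 0.88), which like the BTG proteins restrain growth, were called higher in both gates. So were Cdkn1a (3.08 and 3.69) and Cnot7, the deadenylase subunit that BTG and TOB proteins bind (0.79 and 0.76). E2f2 in CD4-gated cells was lower, at -0.92, and Ccne2, a cyclin of CDK2, was higher in CD8-gated cells, at 1.74.

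The active and onset libraries allow no test, since each is 1 library. Genes that reached 10 CPM in 1 of the libraries and differed by 1.5-fold or more were 4.08% of genes in CD4-gated cells, 6.06% in CD8-gated cells and 18% in Foxp3 T cells. Of the members, only Rb1 in CD8-gated cells was that far apart, at 20.1 CPM (413 UMIs) in the active and 32.9 CPM (377 UMIs) in the onset library, a log2 ratio of -0.71 (95% Poisson interval -0.91 to -0.50, covering counting error only). Ncr1, Klrb1c and Klrk1 in these cells summed to 30.8 CPM in the active and 119 CPM in the onset library, and their part in the Rb1 difference was not tested. Cdkn2c in CD8-gated cells was at 2.68 CPM (55 UMIs) and 5.50 CPM (63 UMIs), a log2 ratio of -1.04 (-1.59 to -0.49), below the level minimum. Cdkn1b was lower in the active library in both gates, at -0.50 (-0.59 to -0.41) in CD8-gated and -0.28 (-0.35 to -0.20) in CD4-gated cells. Ccnd2 was higher there, by 0.15, 0.26 and 0.32 on the log2 scale in CD4-gated, CD8-gated and Foxp3 T cells, and Btg1 by 0.30, 0.095 and 0.38.

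Shares of cells with a UMI showed how widely each transcript was spread, after thinning each cell to 2000 UMIs and leaving out the 5 to 98 shallower cells per library and population. No cell type that should lack these genes was at hand, so no background share from free RNA could be set. Btg1 was detected in 88.2% to 98.4% of CD4-gated cells and 86.6% to 96.9% of CD8-gated cells. Btg2 ran from 32.0% in PPCA day 2 to 69.4% in PPCA day 4 among CD4-gated cells, around a median of 41.8%, and from 29.3% to 56.9% among CD8-gated cells. Ccnd2 ran the other way, from 30.6% in PPCA day 4 to 68.5% in the active library, with a median of 62.6%. Without thinning the medians in CD4-gated cells were 99.7% for Btg1, 71.9% for Btg2 and 81.8% for Ccnd2.

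Ccnd3 was found in 37.4% to 57.9% of thinned CD4-gated cells and Cdkn1b in 21.9% to 33.8%. Cdk6 was found in a median of 2.12% of CD4-gated, 4.58% of CD8-gated and 4.43% of Foxp3 T cells, and in 5.20% and 10.5% of CD4-gated and CD8-gated cells without thinning. Rb1 was found in a median of 6.87%, 4.92% and 11.0% of these populations, and Cdkn2c in at most 2.17%. For Cdk6 and Rb1 the thinned shares of CD4-gated and CD8-gated cells stood in the same order as the CPM.

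The authors' deposited table of cluster markers lists 6 of the 10 members in at least 1 of its 7 clusters and not Cdkn2c, Cdkn2d, Ccnd3 or Cdk4. Its entries start at a log2 fold change of 0.25. Cdk6 in that authors' deposited table marks the CD8 TRM TEM cluster, at a log2 fold change of 0.42, with the gene detected in 16.1% of the cells of the cluster. Rb1 in the authors' deposited table marks CD4 Treg at 0.49 (24.3% of cells) and CD8 TRM TEM at 0.26 (19.6%). Cdkn1b is listed in the authors' deposited table for CD4 Th17 at 0.55, CD4 Treg at 0.48 and CD8 TRM TEM at 0.25, and Btg2 for the same 3 clusters at 0.56, 0.42 and 0.37. Btg1 is listed in the authors' deposited table for CD4 Th17 at 0.26 and CD4 Treg at 0.25, and Ccnd2 for CD4 Th1 at 0.45 and CD4 Th0 at 0.35. The clusters come from the same cells, so these entries are a description and no separate test of the gates.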

How the data were processed

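The deposited matrices are raw UMI counts per gene and barcode, written by Cell Ranger 6.0.0 per the file headers; the submitters' processing notes name Cell Ranger 6.1.2 and Seurat. The genome build is not given in the sources used here, nor is the strand setting of the counting, so reads of members that overlap other genes (Cdk4, Ccnd3, Rb1), antisense genes (Cdk6, Ccnd2) or pseudogene copies (Btg1) may be shared. The authors' deposited marker table gives, for 7 clusters, p-values, log2 fold changes and the fraction of cells with a gene; its tool is not stated.

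The members, gene lists, gates and tests were chosen with earlier results of these data known. Cells had at least 500 genes and under 10% mitochondrial UMIs. The top-scoring 0.8% of barcodes per 1000 barcodes by Scrublet (scanpy 1.11.5) were removed as doublets. A T cell needed 2 or more UMIs over Cd3d, Cd3e, Cd3g, Trac, Trbc1 and Trbc2 and no more than 1 over 6 B and myeloid genes. UMIs were summed per library and population, scaled with TMM, filtered with filterByExpr and tested with edgeR 4.0.16 (R 4.3.3), tested first on simulated data, with library as block between populations and harvest day as block between arms. Between arms, 2 residual degrees of freedom remained. CPM is UMIs per 1000000 UMIs of a population.

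The numbers in the sample names are days, so day pairs vehicle and PPCA libraries by label. The correlation across genes of same-day libraries, as deviations from their arm means, was 0.329, 0.334 and 0.499 in CD4-gated cells. It was 0.348, 0.546 and 0.512 in CD8-gated and 0.199, 0.197 and 0.397 in Foxp3 T cells. Vehicle day 2 and PPCA day 3 correlated at 0.319, 0.105 and 0.212 in these populations. For vehicle day 3 and PPCA day 2 the values were -0.0096, -0.138 and 0.080. Pairs of day 4 with another day were all negative. Days 2 and 3 were thus not clearly told apart in CD4-gated and Foxp3 T cells. All 10 members were named, and of 31 other pathway genes those called, up to the 6 lowest adjusted p. DESeq2 1.42.0, other scalings, filters, cells and left-out libraries were alternatives. Scaling by total counts and leaving out both day 4 libraries were added after seeing the data.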

Additional observations from a re-analysis of the deposited data

Results flagged for a closer look

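Within harvest days, log2 ratios of PPCA to vehicle were looked at where they lay at least 0.32 above 0 on 1 day and at least 0.32 below 0 on another, with at least 100 UMIs behind each level. Ccnd2 and Btg2 met this in both gates. Btg1 and Rb1 also changed sign between days in both gates, by less on 1 side. Cdkn2c in CD4-gated cells ran from -0.45 to 0.68 but did not reach the UMI minimum. Foxp3 T cells were not searched, and Rb1 ran from -0.37 to 0.34 there. Each ratio compares 1 library with 1 library, and the difference between the days was not tested. Ccnd2, the D-type cyclin, was higher with PPCA on day 3 and lower on day 4: 0.54 and -0.86 in CD4-gated cells, and 0.39 and -0.75 in CD8-gated cells. Btg2, the antiproliferative gene, was lower with PPCA on day 2 and higher on day 4: -0.56 and 0.44 in CD4-gated cells, and -0.37 and 0.55 in CD8-gated cells. CD4-gated and CD8-gated cells come from the same libraries, so the second population is no separate replicate of the first. On both day 2 and day 4, but not on day 3, the libraries compared also differed in Xist and Y-linked transcripts, and the part of that difference was not tested.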

How the results depend on the processing

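For PPCA against vehicle in CD4-gated cells, the count of 0 genes became 35 with DESeq2, 134 without the low-count filter, 126 with the Y-linked class as a factor, and 0 to 25 when 1 harvest day was left out. In CD8-gated cells it became 1 with median-of-ratios size factors, 40 with DESeq2, 150 without the filter, 4 under scaling by total counts, 269 with the Y-linked factor and 0 to 236 without 1 day, where 0 to 1 members were called. In Foxp3 T cells the count of 7 became 14 with DESeq2, 97 without the filter, 96 with the Y-linked factor, 1 to 42 without 1 day, and 0 with no replicate block. In these PPCA comparisons the Y-linked factor and leaving out 1 day left fewer than 2 residual degrees of freedom. The interaction count of 1 became 57 without the filter and 0 to 1 without 1 day. With no replicate block, the CD8 against CD4 comparison fell from 5745 to 2015 genes and from 6 to 3 members, and the Foxp3 comparison from 3787 to 2052 genes and from 9 to 5 members; the block changed no member call in the PPCA comparison. In the 4 Xist-carrying libraries the Foxp3 comparison called 2238 genes, with 8 samples fitted in place of 16. For day 4, 768 to 786 genes and 1 to 3 members were called in CD4-gated cells and 189 to 1307 genes and 0 to 3 members in CD8-gated cells without 1 earlier day, and without the filter 4 members were called in CD4-gated cells, with 2444 of 19594 genes.

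Log2 fold changes that turned sign belonged to members that were not called, apart from Ccnd3 and Btg1 in the Foxp3 comparison, which went to 0.042 and 0.047 under scaling by total counts, as uncalled Btg2 went to 0.16. For PPCA in CD4-gated cells, scaling by total counts gave 0.073 for Cdkn1b, and leaving out 1 day gave -0.080 to 0.053 for Cdkn1b, -0.19 to 0.44 for Cdkn2c, -0.44 to 0.20 for Ccnd2, -0.51 to 0.023 for Btg1 and -0.015 to 0.18 for Rb1. For PPCA in CD8-gated cells, Btg2 was 0.065 with no replicate block, and leaving out 1 day gave -0.46 to 0.026 for Ccnd2, -0.34 to 0.073 for Btg1 and -0.45 to 0.049 for Btg2. For PPCA in Foxp3 T cells, where Rb1 and Cdkn1b were near 0, Rb1 was -8.4e-05 with median-of-ratios factors, -0.015 with DESeq2, -0.0029 without the filter, -0.067 with stricter cells and -0.024 with the Y-linked factor, and Cdkn1b was -9.9e-05, -0.0037 and -0.038 with DESeq2, without the filter and with stricter cells. Leaving out 1 day there gave -0.047 to 0.035 for Cdkn1b, -0.34 to 0.18 for Ccnd2, -0.060 to 0.086 for Cdk4, -0.40 to 0.12 for Btg1 and -0.20 to 0.16 for Rb1. The interaction of Cdkn2d was 0.0018 without doublet removal and that of Cdk4 -0.038 to 0.074 without 1 day. For day 4, Cdk4 ran from -0.086 to 0.037 in CD4-gated and from -0.012 to 0.10 in CD8-gated cells without 1 day, with -0.13 under scaling by total counts, and Cdk6 from -0.22 to 0.071 in CD8-gated cells. The causes of these changes were not tested. Over the alternatives for single members, 20 values gained a call and 16 lost one without a change of direction. Low counts limit Cdkn2c in every population and Cdk6 in Foxp3 T cells.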
